A study of Saccharomyces cerevisiae with 40 samples.

Results

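The genes described here are 10 Saccharomyces cerevisiae genes of peroxisomal beta-oxidation: POX1, FOX2, POT1, FAA2, PXA1, PXA2, ECI1, DCI1, SPS19 and CTA1. They were taken by their systematic names from the 6661 transcripts measured in each library, and all 10 were found. The RNA-seq data comprised 40 libraries: strain, medium and treatment were combined into 8 groups, each with 5 replicates. S288c is a laboratory background, for which the strain label is GSY147, and RM11 is a haploid strain from a vineyard. The cells grew to mid-log phase in minimal media (YM), which holds dextrose, or in the same media with tryptophan, tyrosine and phenylalanine added (WYF). The treated cultures received Credit41 (Cr41), a commercial glyphosate formulation, for 90 min, and the untreated cultures did not. The source labels of the treated libraries give the dose as 0.25% Cr41, and the methods give it as 0.25% Credit41. The labels also give it once as 0.25% glyphosate within Cr41. The formulation also holds additives, which no group received alone. Nothing in the labels says that replicates came from separate cultures, so the p-values measure the spread between these libraries.

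Beta-oxidation shortens fatty acids step by step to acetyl-CoA, and in yeast the whole pathway lies in the peroxisome. Its genes are known for strong repression on glucose and strong induction on oleate, where the factors Oaf1 and Pip2 bind as a pair to oleate response elements, and Adr1 acts on many of the same promoters when glucose runs out. All cultures described here grew on a sugar, and none was given oleate.

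The total of the estimated counts lay between 4224356 and 7866046 per library. YM libraries all came from lane 2 and WYF libraries all from lane 3. Medium is therefore confounded with lane, whereas strains and treatments were compared within a lane. Reads of both strains were counted on S288c transcripts, and the part of sequence differences in the strain comparisons was not tested. To look for single libraries at odds with their strain label, 47 transcripts were summed. They had a median of at least 5 CPM (read counts scaled to library size) in every S288c group and 0 in every RM11 group. This choice uses the labels and so sets the contrast between the strains. Only a stray library could show. The transcripts summed to between 10120 and 21020 CPM in the S288c libraries. In RM11 libraries the same transcripts summed to at most 77.4 CPM, except in untreated RM11 in WYF replicate 2, where they reached 338 CPM. Cr41-treated RM11 in YM replicate 5 stood apart from its group, with a median correlation of 0.972 with the other 4 libraries against at least 0.992 for each of those, over log2 CPM. Untreated S288c in WYF replicate 4 had a value of 0.973 against at least 0.985 in its group, and Cr41-treated S288c in YM replicate 4 had the lowest value of all, 0.970, in a group that ranged up to 0.981. Untreated RM11 in WYF replicate 2, the library with 338 CPM of S288c-only transcripts, had 0.978 against at least 0.989 in its group. For the members, test outcomes that change without one of these libraries are given with both values. The outcomes of other genes were not recomputed without these libraries. In bulk cultures, a change in every cell and a change in some of the cells cannot be told apart.

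The promoters are shown because the members share letters there. The members were chosen by name and not by these letters. They are genes known for their response to oleate, so oleate response letters in their promoters are not independent of the choice. The window searched was the 300 bases that begin 400 bases before each start codon, in the R64 assembly of RefSeq, on both strands. The core of the oleate response element, CGGNNNTNA, was present in 10 of 10 members and in 26.3% of 6007 promoters of the same length. The fuller pattern, in which the core is followed after 9 to 12 bases by CCG, was present in 9 of 10 members and in 1.43% of all promoters. That pattern was added to the search after the matches to the core were known. PXA1 was the member without it, although its window held 4 matches to the core. The letters TTGGAG or TTGGGG, which Adr1 binds, were present in 9 of 10 members, all but PXA2, and in 16.7% of all promoters. GCGGGG, the core bound by the glucose repressor Mig1, was present in 0 of 10 members and in 3.83% of promoters. AGGGG, the stress response element, was present in 0 of 10 members and in 23.6% of promoters. A match is a description of letters and was not tested as a binding site. The 4 windows below were chosen for the contrast in their RNA described further on, and each is written 5′ to 3′ on the coding strand of the gene. Capitals mark the fuller oleate response element on either strand, and in PXA1, which has none, the matches to the core.
CTA1, chrIV:969781-970080, - strand: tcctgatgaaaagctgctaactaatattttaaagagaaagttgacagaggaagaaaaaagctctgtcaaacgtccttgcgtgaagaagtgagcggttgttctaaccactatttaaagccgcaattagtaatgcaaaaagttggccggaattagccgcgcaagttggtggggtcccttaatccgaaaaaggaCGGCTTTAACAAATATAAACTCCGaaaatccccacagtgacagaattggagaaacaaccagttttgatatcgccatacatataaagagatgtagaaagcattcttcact
POT1, chrIX:41545-41844, - strand: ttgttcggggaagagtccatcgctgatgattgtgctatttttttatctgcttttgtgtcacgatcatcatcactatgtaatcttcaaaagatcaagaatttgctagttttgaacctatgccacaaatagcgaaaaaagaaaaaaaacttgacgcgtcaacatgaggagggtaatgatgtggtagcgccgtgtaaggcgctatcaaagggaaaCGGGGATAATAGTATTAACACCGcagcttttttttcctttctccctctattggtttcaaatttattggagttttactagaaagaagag
POX1, chrVII:107758-108057, + strand: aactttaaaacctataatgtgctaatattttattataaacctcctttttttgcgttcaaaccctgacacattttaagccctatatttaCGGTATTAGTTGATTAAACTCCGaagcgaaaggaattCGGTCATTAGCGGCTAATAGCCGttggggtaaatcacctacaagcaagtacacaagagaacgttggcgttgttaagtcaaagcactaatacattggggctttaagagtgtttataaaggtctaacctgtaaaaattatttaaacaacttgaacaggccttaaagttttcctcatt
PXA1, chrXVI:272855-273154, + strand: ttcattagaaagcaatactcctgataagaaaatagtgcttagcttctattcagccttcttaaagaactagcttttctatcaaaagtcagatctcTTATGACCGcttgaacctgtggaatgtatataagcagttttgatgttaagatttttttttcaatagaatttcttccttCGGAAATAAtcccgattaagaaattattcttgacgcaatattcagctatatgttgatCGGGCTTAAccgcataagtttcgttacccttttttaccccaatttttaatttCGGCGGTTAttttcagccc
In CTA1 and POT1 the capitals are a single stretch that reads as the fuller pattern on both strands, and POX1 has a stretch of that kind plus another that matches on the opposite strand alone. The element lay 209 to 186 bases before the start codon in CTA1 and 188 to 166 bases before it in POT1. In POX1 the elements lay 312 to 290 and 275 to 253 bases before it. The Adr1 letters of CTA1 lay closer to the gene, 164 to 159 bases before its start codon. The members whose windows are not printed all hold the fuller element too. In DCI1 it also reads on both strands, 142 to 119 bases before the start codon, yet DCI1 passed the test in no comparison with Cr41. Whether the element goes with the change in RNA was not tested.

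**Figure D1:**
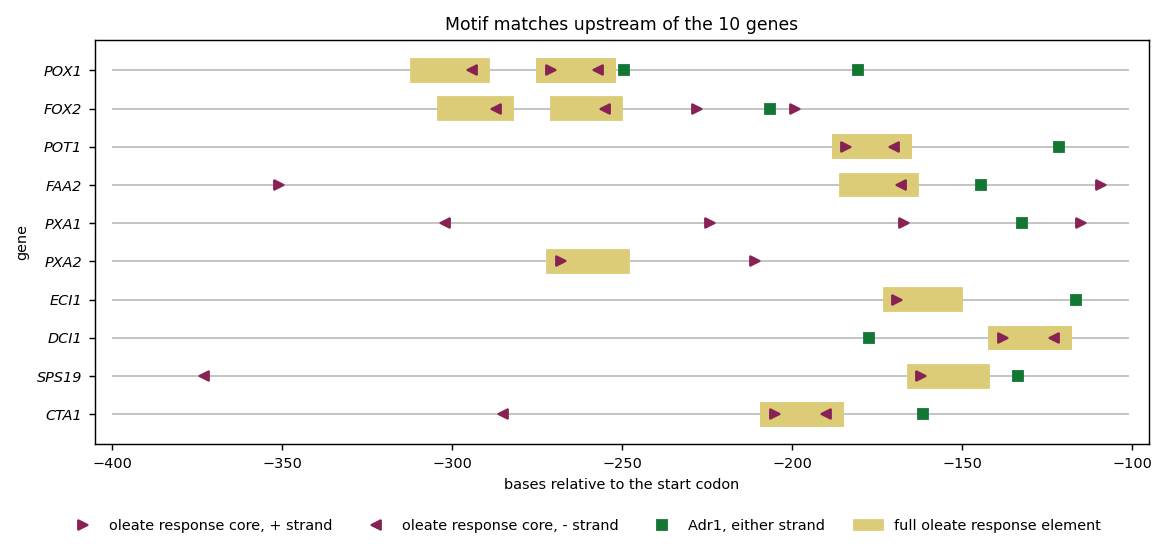
Motif matches in the 300 bases that begin 400 bases before the start codon of each of the 10 genes; the horizontal axis is the distance in bases from the start codon, triangles are matches to the oleate response core pointing along their strand, green squares are Adr1 letters on either strand, and shaded boxes are fuller oleate response elements. A box is present in 9 of 10 genes and absent in PXA1, and a square is absent only in PXA2.

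The members were weakly expressed. On the TPM scale, which corrects for transcript length and so allows genes to be compared, all 80 means of a member in a group lay below the median of all transcripts of that group, which was 24.1 to 28.2. The means lay between percentiles 4.67 and 44.8 of all transcripts. In untreated S288c in YM, the highest was ECI1 with 11.5 TPM ± 2.14 (SD, n = 5) and the lowest was POX1 with 0.511 TPM ± 0.374. The highest mean of any member in any group was 19.9 TPM, for both ECI1 in Cr41-treated S288c in YM (SD 2.91) and POT1 in Cr41-treated RM11 in WYF (SD 1.51). From here on, levels are CPM scaled with the TMM method over all 40 libraries, which compare libraries and not genes. Summed over the 10 members, untreated S288c in YM had 80.6 CPM ± 9.37 and Cr41-treated S288c in YM had 165 CPM ± 31.2. In WYF the sum was 110 CPM ± 4.95 in untreated S288c and 156 CPM ± 8.48 with Cr41. In RM11 it was 127 CPM ± 4.69 untreated and 121 CPM ± 6.02 treated in YM, and 153 CPM ± 4.17 and 180 CPM ± 12.7 in WYF. The sums of treated and untreated libraries did not overlap in S288c in either medium or in RM11 in WYF, and they did overlap in RM11 in YM.

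**Figure D2:**
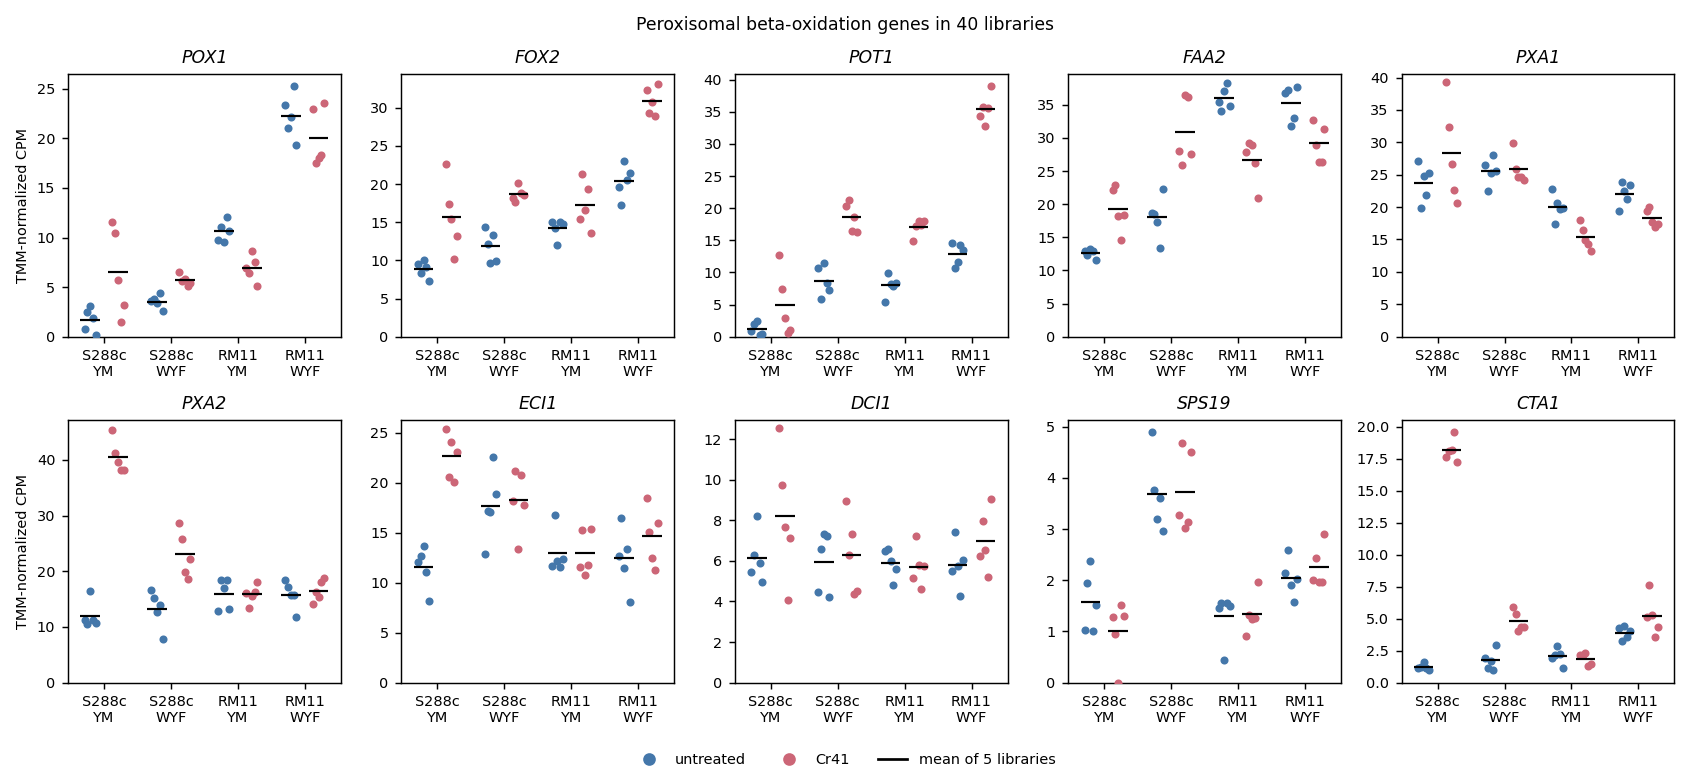
TMM-normalized CPM of the 10 genes in 40 libraries, 1 panel per gene with its own axis from 0; each point is a library, blue untreated and red Cr41-treated, and black lines are the means of 5 libraries. The 5 treated S288c libraries in YM lie above every other library for PXA2 (38.1 to 45.3 CPM) and CTA1 (17.2 to 19.6 CPM), while their POX1 and POT1 values are spread over 1.51 to 11.6 and 0.646 to 12.7 CPM.

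The first question was which members changed with Cr41 in each strain and medium. A gene was said to rise or fall at a Benjamini-Hochberg adjusted p under 0.05 in edgeR's quasi-likelihood test, and was called when the change was also at least 2-fold. SPS19 was too low to be tested in YM, so 9 members were tested there and 10 in WYF. With Cr41, 4 of 9 members were called higher in S288c in YM (POX1, POT1, PXA2 and CTA1), where 11% of all genes tested were called higher, and 0 were called lower, where 8.82% of genes were. Without the fold threshold 7 of 9 rose, the others being FOX2, FAA2 and ECI1, against 33% of all genes. For 5 members, FOX2, FAA2, PXA2, ECI1 and CTA1, treated and untreated libraries did not overlap, as held for 53.9% of all genes. The WYF medium gave 2 of 10 called higher in S288c (POT1 and CTA1), against 2.99% of genes, and 6 rose, against 22.7%. The same 6 members did not overlap between the groups there, against 36.3% of genes. With limma on log2(TPM + 1), a scale that understates changes of genes this low, PXA2 and CTA1 were still called in S288c in YM while POX1, POT1, FOX2 and FAA2 did not pass the adjusted p (0.0771, 0.159, 0.0768 and 0.0663), which left 3 of the 7, and in WYF POT1 and CTA1 passed the adjusted p but not 2-fold. In RM11 in YM, POT1 was the 1 member of 9 called, against 0.946% of genes called higher, while POX1, FAA2 and PXA1 fell by less than 2-fold, 3 of 9 members against 7.28% of genes. POX1, POT1 and FAA2 did not overlap there, 3 members against 14.9% of genes. In RM11 in WYF, POT1 was again the 1 member called, of 10, against 1.19% of genes, FOX2 rose by less than 2-fold, and FAA2 and PXA1 fell. The 2 of 10 that rose stood against 17.8% of genes that did, and the 2 that fell against another 17.8%. FOX2 and POT1, 2 members, did not overlap, against 24.1% of genes. The median log2 change of the members tested was 0.93 in S288c in YM, 0.63 in S288c in WYF, -0.044 in RM11 in YM and 0.20 in RM11 in WYF. The median over all genes tested lay between -0.013 and 0.011 in these comparisons.

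**Figure D3:**
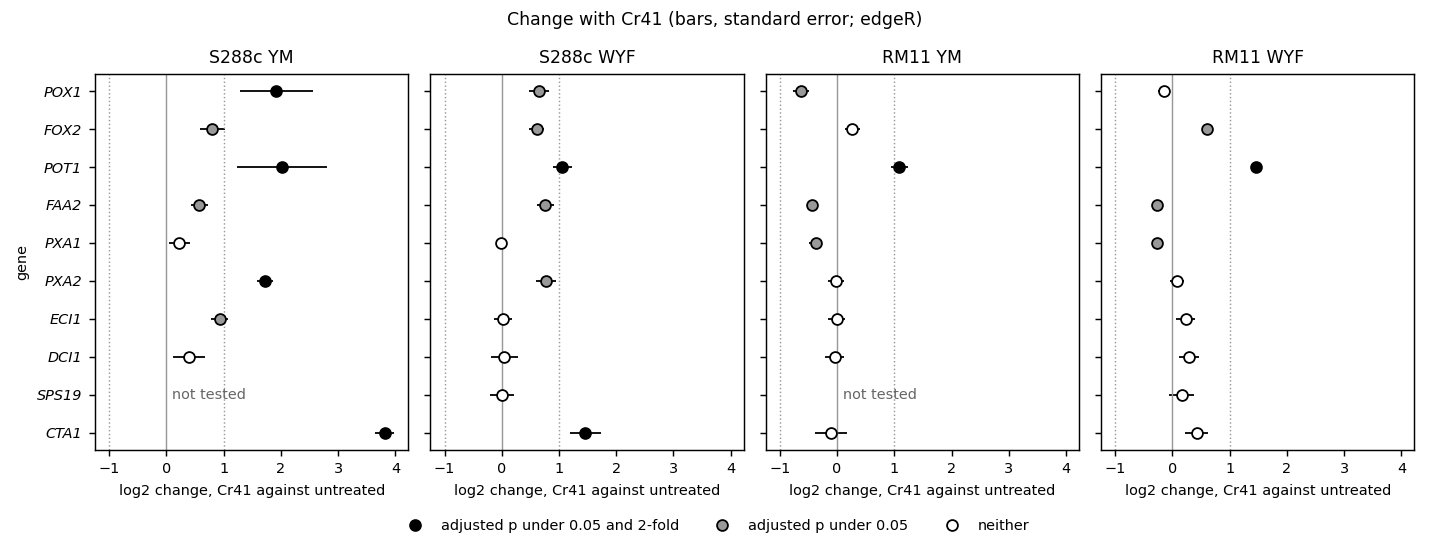
Log2 change with Cr41 against untreated for each of the 10 genes in each strain and medium (edgeR, bars are the standard error); filled points passed an adjusted p under 0.05 and 2-fold, grey points the adjusted p alone, white points neither, and dotted lines mark 2-fold. CTA1 in S288c in YM, at 3.81, lies furthest to the right, and POT1 is the gene with filled points in all 4 panels.

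FAA2 (YER015W, chrV:184541-186775), the acyl-CoA synthetase that activates medium-chain fatty acids at the peroxisome, moved in opposite directions in the strains. In S288c in YM it stood at 12.96, 12.3, 13.3, 12.9 and 11.6 CPM in untreated replicates 1 to 5 and at 22.1, 22.9, 18.2, 14.7 and 18.3 CPM with Cr41. Every treated library lay above every untreated one, and FAA2 rose by 0.58 on the log2 scale (edgeR, standard error 0.14, adjusted p = 0.0035). In RM11 in YM it stood at 35.5, 34.1, 37.0, 38.3 and 34.8 CPM untreated and at 27.8, 29.2, 29.0, 26.3 and 21.0 CPM with Cr41. Here every treated library lay below every untreated one, with a log2 change of -0.43 (standard error 0.098, adjusted p = 0.00842). In WYF the log2 change was 0.76 in S288c (adjusted p = 0.000848), without overlap, and -0.27 in RM11 (adjusted p = 0.0147), with overlap. The fall in RM11 in WYF had an adjusted p of 0.0536 without Cr41-treated replicate 3. FAA2 overlaps an annotated ORF, BUD25, and without strand information in the counting the reads of the overlap cannot be assigned.

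PXA1 (YPL147W, chrXVI:273255-275867) and PXA2 (YKL188C, chrXI:86225-88786) encode the subunits of the ABC transporter that brings long-chain acyl-CoA into the peroxisome. PXA2 in S288c in YM stood at 11.2, 10.6, 16.4, 11.3 and 10.7 CPM untreated and at 45.3, 41.2, 39.7, 38.1 and 38.1 CPM with Cr41. The groups were far apart, and PXA2 rose 3.29-fold, with a log2 change of 1.72 (standard error 0.14, edgeR adjusted p = 3.37e-07). PXA1 in the same libraries stood at 27.1, 19.9, 24.8, 21.9 and 25.3 CPM untreated and at 39.2, 32.4, 26.7, 22.6 and 20.7 CPM treated. These groups overlapped, with the treated libraries spread on both sides of the untreated ones, and the log2 difference of 0.23 had a 95% interval of -0.17 to 0.62 (adjusted p = 0.281).

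PXA2 in S288c in WYF stood at 16.6, 15.3, 12.6, 14.0 and 7.83 CPM untreated and at 28.6, 25.9, 19.9, 18.6 and 22.1 CPM with Cr41. It rose without overlap, by 0.77 on the log2 scale (standard error 0.18, adjusted p = 0.00304), while the difference of PXA1 was -0.012 (95% interval -0.22 to 0.20). RM11 showed no such rise: PXA2 differed by -0.021 in YM (95% interval -0.30 to 0.26) and 0.081 in WYF (-0.17 to 0.33), and PXA1 fell by 0.37 in YM (adjusted p = 0.0385) and by 0.26 in WYF (adjusted p = 0.0291). Both PXA1 falls were marginal, and neither passed with limma on log2(TPM + 1), nor the fall in WYF with DESeq2 (adjusted p = 0.0608). Leaving out any 1 of 7 of the 10 libraries in YM, or any 1 of 6 in WYF, gave an adjusted p of 0.05 or more. Among these, leaving out untreated RM11 in WYF replicate 2 gave a PXA1 log2 change of -0.23 (edgeR adjusted p = 0.0772). The ratio of PXA2 to PXA1 in TPM, taken within each library, was 0.481 ± 0.0953 in untreated S288c in YM (0.391 to 0.626) and 1.39 ± 0.268 with Cr41 (1.07 to 1.72). The same ratio in S288c in WYF was 0.493 ± 0.136 untreated and 0.825 ± 0.0975 treated, again without overlap (0.287 to 0.642 against 0.701 to 0.935). In RM11 the ratios of treated and untreated libraries overlapped in both media, with means of 0.793 and 1.02 in YM and of 0.705 and 0.892 in WYF.

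POX1 (YGL205W, chrVII:108158-110404), the acyl-CoA oxidase of the first step, which releases hydrogen peroxide, had 1 to 18 reads per library in untreated S288c in YM. There it stood at 0.736, 2.51, 3.10, 1.85 and 0.190 CPM, and with Cr41 at 11.6, 10.5, 5.70, 1.51 and 3.23 CPM. Treated replicates 1, 2, 3 and 5 lay above every untreated library and replicate 4 did not. POX1 rose by 1.92 on the log2 scale (edgeR, standard error 0.63, adjusted p = 0.0183), with a 95% interval of 0.53 to 3.31.

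The POX1 values in S288c in WYF were tight, at 3.56, 3.76, 3.39, 4.36 and 2.54 CPM untreated and 6.55, 5.66, 5.80, 5.07 and 5.44 CPM treated. The groups did not overlap, and POX1 rose by 0.65 on the log2 scale (standard error 0.17, adjusted p = 0.00651). In RM11 in YM it stood at 9.76, 11.1, 9.54, 12.1 and 10.7 CPM untreated and at 6.96, 6.41, 8.61, 7.57 and 5.07 CPM treated. The treated libraries all lay lower, and POX1 fell by 0.63 on the log2 scale (standard error 0.15, adjusted p = 0.0103). In RM11 in WYF it ranged from 19.3 to 25.2 CPM untreated and from 17.5 to 23.5 CPM treated, with an adjusted p of 0.302.

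FOX2 (YKR009C, chrXI:454352-457054), the bifunctional hydratase and dehydrogenase of the middle steps, rose in S288c in both media and in RM11 in WYF. In S288c in YM it stood at 9.57, 8.36, 10.02, 9.08 and 7.23 CPM untreated and at 22.7, 17.4, 15.5, 10.1 and 13.1 CPM with Cr41, barely without overlap. Its log2 changes were 0.80 there (adjusted p = 0.00555), 0.61 in S288c in WYF (adjusted p = 0.00139) and 0.61 in RM11 in WYF (adjusted p = 5.62e-05). In RM11 in YM the difference was 0.27 (95% interval -0.015 to 0.55, adjusted p = 0.2), and without treated replicate 5, the library that stood apart, it was 0.33 (adjusted p = 0.0415).

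POT1 (YIL160C, chrIX:40191-41444), the thiolase that releases acetyl-CoA in the last step, was called higher with Cr41 in all 4 combinations of strain and medium. In RM11 in WYF it stood at 14.5, 10.7, 11.6, 14.3 and 13.4 CPM untreated and at 34.3, 35.7, 32.8, 35.5 and 38.9 CPM with Cr41. The groups were widely separated, and POT1 rose 2.77-fold, with a log2 change of 1.47 (standard error 0.092, edgeR adjusted p = 9e-09). In RM11 in YM it stood at 5.37, 9.92, 8.21, 7.95 and 8.43 CPM untreated and at 14.8, 17.3, 18.0, 17.5 and 18.0 CPM treated. It rose by 1.09 on the log2 scale (adjusted p = 0.000138), without overlap. Without untreated replicate 1 the change was 0.97, just under 2-fold, with an adjusted p of 0.000242.

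POT1 in S288c in WYF stood at 10.7, 5.87, 11.5, 8.35 and 7.20 CPM untreated and at 20.3, 21.3, 16.4, 18.6 and 16.3 CPM treated. It rose by 1.06 on the log2 scale (adjusted p = 0.000164), without overlap, and by just under 2-fold when untreated replicate 2 or 5 or treated replicate 2 was left out. Its values in S288c in YM were 0.883, 1.95, 2.37, 0.336 and 0.381 CPM untreated and 12.7, 7.44, 2.93, 0.646 and 1.08 CPM treated. These groups overlapped: treated replicates 1 to 3 lay above every untreated library and replicates 4 and 5 did not. The log2 change of 2.03 had a standard error of 0.79 and an adjusted p of 0.0384. Leaving out untreated replicate 1, 4 or 5 or treated replicate 1 or 2 gave adjusted p-values of 0.079 to 0.136, so the POT1 call in S288c in YM rests on each of these 5 libraries.

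ECI1, DCI1 and SPS19 encode enzymes that rearrange or reduce the double bonds of unsaturated fatty acids. ECI1 (YLR284C, chrXII:706198-707040), the enoyl-CoA isomerase, stood at 12.1, 12.7, 13.7, 11.1 and 8.19 CPM in untreated S288c in YM and at 25.4, 20.6, 24.1, 20.04 and 23.1 CPM with Cr41. It rose without overlap, by 0.93 on the log2 scale (standard error 0.15, edgeR adjusted p = 0.000137), just under 2-fold, and was called without untreated replicate 3 (1.0013). In the other 3 comparisons with Cr41 its adjusted p-values were 0.302 to 0.985 and its groups overlapped, with log2 differences of 0.024 in S288c in WYF (95% interval -0.32 to 0.37), -0.0069 in RM11 in YM (-0.32 to 0.31) and 0.23 in RM11 in WYF (-0.12 to 0.59). DCI1 (YOR180C, chrXV:674352-675167), the dienoyl-CoA isomerase, did not pass the test in any of the 4 comparisons, where its group means lay between 5.71 and 8.22 CPM. Its largest difference was 0.39 in S288c in YM (95% interval -0.22 to 1.01). Its treated libraries there ranged from 4.09 to 12.5 CPM and enclosed all untreated ones. ECI1 and DCI1 shared 77.3% identity over 66 bases at most, and no member had a near-identical copy.

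SPS19 (YNL202W, chrXIV:259578-260456), the dienoyl-CoA reductase, was the one member too low for the test in YM, with 0 to 14 reads per library there. In S288c in YM it stood at 1.03, 1.95, 2.37, 1.01 and 1.52 CPM untreated and at 1.29, 0.954, 0, 1.51 and 1.29 CPM treated. Treated replicate 3 had 0 reads, which at its depth allows a level of up to 0.427 CPM (3 reads) for counting error alone. In WYF, where it was tested, the log2 difference with Cr41 was 0.0059 in S288c (95% interval -0.44 to 0.45) and 0.16 in RM11 (-0.32 to 0.64). SPS19 counts were not whole in 11 of 40 libraries, where Salmon divided reads between transcripts, and the counts of the other 9 members were whole throughout.

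CTA1 (YDR256C, chrIV:968133-969680), the peroxisomal catalase that breaks down the hydrogen peroxide made by the oxidase, had the largest change of any member. In S288c in YM it stood at 1.18, 1.25, 1.64, 1.18 and 0.952 CPM untreated (5 to 9 reads per library) and at 17.7, 18.1, 18.2, 19.6 and 17.2 CPM with Cr41 (80 to 112 reads). The treated libraries agreed closely with one another and lay far above all untreated ones, so CTA1 rose 14.1-fold, with a log2 change of 3.81 (standard error 0.17, edgeR adjusted p = 1.88e-09).

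CTA1 in S288c in WYF stood at 1.93, 1.17, 1.69, 0.997 and 2.96 CPM untreated and at 5.90, 5.34, 4.03, 4.35 and 4.31 CPM with Cr41. It rose without overlap, 2.76-fold, by 1.46 on the log2 scale (standard error 0.26, adjusted p = 0.000454). In RM11 in YM it stood at 1.95, 2.19, 2.88, 2.22 and 1.12 CPM untreated and at 2.19, 2.14, 2.35, 1.26 and 1.47 CPM treated. These groups overlapped, with a log2 difference of -0.11 (95% interval -0.69 to 0.48, adjusted p = 0.844). In RM11 in WYF it ranged from 3.24 to 4.41 CPM untreated and from 3.59 to 7.63 CPM treated, a log2 difference of 0.43 (95% interval 0.00040 to 0.85, adjusted p = 0.111). Without treated replicate 4 that difference was 0.53 (adjusted p = 0.0486). Ordered by mean, CTA1 was lowest in untreated S288c in YM and highest in treated S288c in YM. The group next below the highest was treated RM11 in WYF, at 5.20 CPM ± 1.52.

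Whether the change with Cr41 differed between strains was tested as an interaction over the 20 libraries of a medium, taken as the S288c log2 change less the RM11 one. For YM, 4 of 9 members tested were called, all positive: CTA1, POX1, PXA2 and FAA2, where 11% of all genes had a called positive interaction. CTA1 had an interaction of 3.93 (standard error 0.32, edgeR adjusted p = 1.51e-09), POX1 of 2.53 (0.61, adjusted p = 0.00159), PXA2 of 1.73 (0.19, adjusted p = 8.48e-08) and FAA2 of 1.0006 (0.16, adjusted p = 1.63e-05). ECI1 (0.93, adjusted p = 0.000811) and PXA1 (0.59, adjusted p = 0.0215) passed the adjusted p alone, which made 6 of 9 members against 25.7% of genes. PXA1 did not pass with limma on log2(TPM + 1), at 0.35 (adjusted p = 0.174). The interaction of FAA2 fell just under 2-fold without S288c treated replicate 1 or 2 or RM11 treated replicate 5 (0.96 to 0.98). That of ECI1 rose just above it, to at most 1.03, without S288c treated replicate 4, RM11 untreated replicate 4 or RM11 treated replicate 2 or 5. FOX2 (0.52, adjusted p = 0.0802) passed the adjusted p without S288c treated replicate 4 or 5 or RM11 treated replicate 2 (0.61 to 0.67). POT1, which was called in both strains, had an interaction of 0.92 with a 95% interval of -0.61 to 2.45 (adjusted p = 0.301). With limma on log2(TPM + 1) its value was -0.17, but the median of all genes for this interaction was also -0.17 on that scale. The turned sign of POT1 is therefore no larger than the shift of all genes there.

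In WYF, 2 of 10 members had a called positive interaction, against 2.47% of genes. These were CTA1 (1.05, standard error 0.33, adjusted p = 0.0178) and FAA2 (1.04, standard error 0.17, adjusted p = 4.19e-05). POX1 (0.80, adjusted p = 0.00291) and PXA2 (0.70, adjusted p = 0.0199) passed the adjusted p alone, so 4 of 10 did, against 15% of genes. Each called value lay close to 2-fold. CTA1 fell below that fold without S288c untreated replicate 2 or 4, S288c treated replicate 1, RM11 untreated replicate 3 or RM11 treated replicate 4 or 5 (0.86 to 0.9985, adjusted p at most 0.0448), and FAA2 without S288c untreated replicate 4 or treated replicate 3 or 4 (0.93 to 0.996). POT1 had an interaction of -0.40 (95% interval -0.80 to -0.0077, adjusted p = 0.106), which passed the adjusted p without S288c untreated replicate 2, at -0.47 (adjusted p = 0.0441). FOX2 differed by 0.0081 between the strains in WYF (95% interval -0.28 to 0.30).

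Whether the change differed between media was tested within each strain, taken as the YM log2 change less the WYF one. In S288c, CTA1 was the 1 member of 10 called, at 2.37 (standard error 0.33, edgeR adjusted p = 5.41e-06), where 6.53% of genes had a called positive value. PXA2 (0.96, adjusted p = 0.00196) and ECI1 (0.91, adjusted p = 0.00176) passed the adjusted p alone, which made 3 of 10 members against 21.4% of genes. POX1 (1.26, 95% interval -0.095 to 2.61) and POT1 (0.96, -0.59 to 2.50) had wide intervals. POX1 passed both criteria without treated YM replicate 4, at 1.499 (adjusted p = 0.0406). PXA2 exceeded 2-fold without untreated YM replicate 3, untreated WYF replicate 5 or treated WYF replicate 1 (1.04 to 1.09), and ECI1 without untreated WYF replicate 1 (1.0048). In RM11, 0 of 10 members were called, against 0.739% of genes in either direction, and their values lay between -0.55 and -0.12. By edgeR, 3 of them, POX1, FOX2 and POT1, had an unadjusted p under 0.05, and DESeq2 also called 0. POX1 passed the adjusted p without treated YM replicate 3 (-0.60, adjusted p = 0.036) and POT1 without untreated YM replicate 1 (-0.51, adjusted p = 0.0384).

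**Figure D4:**
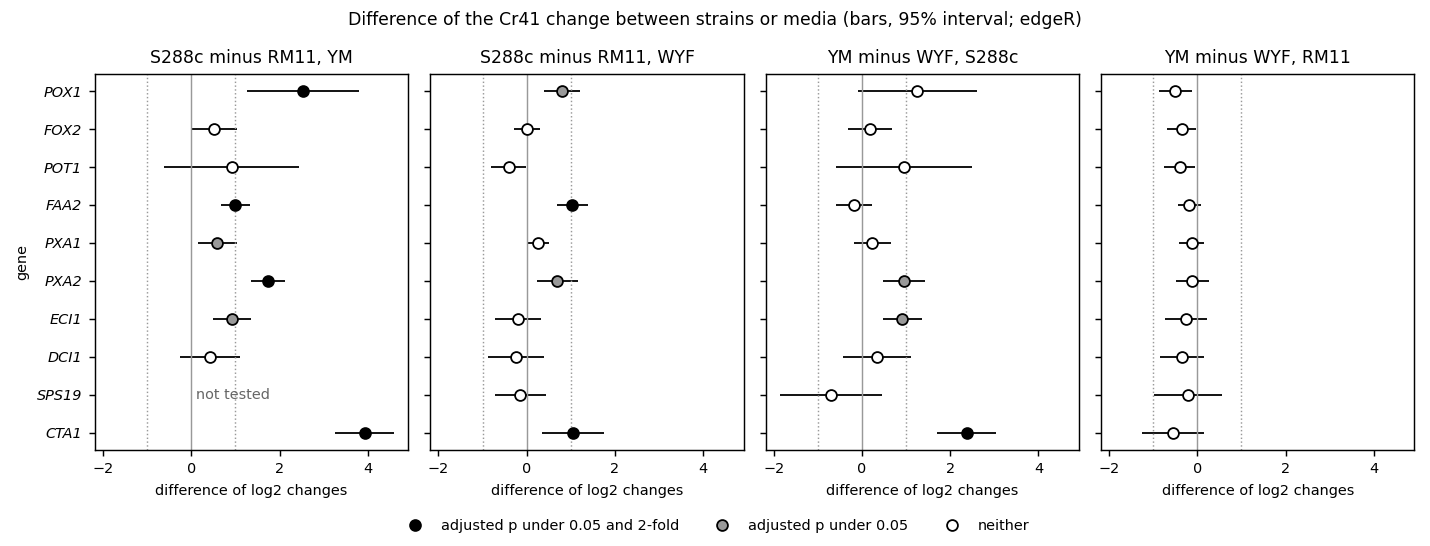
Difference of the log2 change with Cr41 between strains (S288c minus RM11, in YM and in WYF) or between media (YM minus WYF, in S288c and in RM11) for each of the 10 genes (edgeR, bars are 95% intervals; fills as in the plot of changes with Cr41, dotted lines mark 2-fold). CTA1 lies at 3.93, 1.05 and 2.37 in the first 3 panels, and all values of the last panel lie between -0.55 and -0.12.

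The untreated libraries were compared to give the levels from which these changes started. In YM, 3 of 9 members were called lower in S288c than in RM11, where 8.18% of genes were called lower, and 0 were called higher, where 7.3% were. POT1 was lower by 2.71 on the log2 scale (a value of -2.71 by edgeR, standard error 0.56, adjusted p = 0.000273), with every S288c library below every RM11 library. POX1 had a value of -2.64 (standard error 0.46, adjusted p = 3.68e-05) and FAA2 of -1.50 (standard error 0.11, adjusted p = 2.15e-10), also without overlap. FOX2 (-0.68), PXA2 (-0.42) and CTA1 (-0.72) were lower with adjusted p-values of 0.00219, 0.0102 and 0.0194. That made 6 of 9 members lower in S288c, against 30.5% of genes, and POX1, FOX2, POT1 and FAA2 did not overlap, 4 members against 57.3% of genes. The CTA1 value had an adjusted p of 0.0542 without RM11 replicate 3. With limma on log2(TPM + 1), CTA1 (-0.24, adjusted p = 0.145) and PXA2 (-0.26, adjusted p = 0.0924) did not pass. In WYF, POX1 (-2.62, standard error 0.14, adjusted p = 3.07e-13) and CTA1 (-1.18, standard error 0.25, adjusted p = 0.000407) were called lower in S288c, 2 of 10 members against 4.85% of genes. CTA1 was just under 2-fold, at -0.99, without S288c replicate 4. FAA2 (-0.98), FOX2 (-0.75) and POT1 (-0.54) were lower, and SPS19 (0.87), ECI1 (0.52) and PXA1 (0.23) were higher in S288c by the adjusted p alone. In all, 5 of 10 were lower, against 29.2% of genes, and 3 were higher, against 30.4%. POX1, FOX2, FAA2, SPS19 and CTA1 did not overlap, 5 members against 41.3% of genes. Without S288c replicate 4, ECI1 (0.39, adjusted p = 0.061) and PXA1 (0.19, adjusted p = 0.0557) did not pass, nor did PXA1 without RM11 replicate 1 (0.19, adjusted p = 0.0618). FAA2 just exceeded 2-fold without S288c replicate 1 or 5 or RM11 replicate 3 or 4, at up to -1.06.

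Between media, with medium and lane confounded, POT1 in untreated S288c stood at 0.336 to 2.37 CPM in YM and at 5.87 to 11.5 CPM in WYF. Every WYF library lay above every YM library, a log2 difference of 2.83 (edgeR, standard error 0.57, adjusted p = 0.000486). SPS19 was also called higher in WYF in S288c (1.21, standard error 0.37, adjusted p = 0.0120), so 2 of 10 members were, against 3.27% of genes. FAA2 (0.49) and ECI1 (0.60) were higher by the adjusted p alone, so that 4 of 10 were, against 20% of genes. POT1, FAA2 and SPS19 did not overlap, 3 members against 26.9% of genes. POX1 had a difference of 1.05 (95% interval 0.031 to 2.07, adjusted p = 0.0899), which was called without YM replicate 3 (1.35, adjusted p = 0.0469). FOX2 (0.42, adjusted p = 0.0564) passed the adjusted p without any 1 of 4 libraries, at 0.42 to 0.49. Cr41-treated S288c in YM replicate 4 was among these, and without it FOX2 had a difference of 0.42 (edgeR adjusted p = 0.0293). In untreated RM11, POX1 was the 1 member of 10 called higher in WYF, against 0.595% of genes. It stood at 9.54 to 12.1 CPM in YM and at 19.3 to 25.2 CPM in WYF, a log2 difference of 1.03 (standard error 0.12, adjusted p = 9.64e-07) that was just under 2-fold without YM replicate 3 or WYF replicate 4. CTA1 (0.89), POT1 (0.66) and FOX2 (0.49) were higher in RM11 in WYF by the adjusted p alone, so that 4 of 10 were, against 7.92% of genes. The same 4 and SPS19 did not overlap, 5 members against 18.3% of genes.

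The members did not share one pattern over the 8 groups. Across group means of log2 CPM, which share libraries and scaling, POX1, FOX2, POT1 and FAA2 correlated with one another at 0.71 to 0.87, and at 0.67 to 0.83 over the 40 libraries. PXA2 and CTA1 correlated at 0.93 over group means and 0.82 over libraries, and PXA2 and ECI1 at 0.79 and 0.62. For DCI1 and CTA1 the value was 0.84 over group means and only 0.34 over libraries. PXA1 correlated negatively with each of POX1, FOX2, POT1 and FAA2 (-0.50 to -0.40 over group means, -0.29 to -0.22 over libraries). Of 45 pairs, 11 correlated above 0.7 over group means. The treated S288c libraries in YM also differed among themselves: replicate 1 had the highest value for 7 of 10 members and replicate 4 the lowest for 6 of 10. The median SD of log2 CPM over members was 0.399 there, against 0.173 for all genes, and 0.180 against 0.119 in untreated RM11 in WYF. It was above that of all genes in every group, and the part of low counts in this was not tested. The treated S288c libraries in YM differed over all genes too. Chi-square divided by its degrees of freedom was 4.27 to 11.5 among replicates 1 to 3, 6.20 between 4 and 5, and 13.1 to 21.2 across. CTA1 (SD 0.068) and PXA2 (SD 0.10) were tight in the same libraries where POX1 (SD 1.13) and POT1 (SD 1.58) were not. The genes outside the pathway whose profile over the 8 groups was most like the mean profile of the members, of 5812 compared, were SFP1 (r = 0.966), APD1 (0.965), VPS73 (0.963), UBC5 (0.963) and YVC1 (0.955). They were picked as the highest of many genes over only 8 values, so a high r alone says little. Their SD of log2 CPM over the group means was, in the same order, 0.185, 0.185, 0.423, 0.509 and 0.105.

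The regulators of the pathway were measured in the same libraries. ADR1, which encodes the activator Adr1, stood at 19.4, 21.9, 20.2, 23.2 and 17.9 CPM in untreated S288c in YM and at 83.5, 73.1, 84.0, 105 and 115 CPM with Cr41. It rose 4.35-fold, by 2.12 on the log2 scale (standard error 0.12, edgeR adjusted p = 1.78e-08), and every treated library lay far above the untreated ones. Beside this treated mean of 92.2 CPM, the untreated means of the other groups were 80.7 CPM in S288c in WYF, 116 CPM in RM11 in YM and 193 CPM in RM11 in WYF. Treated replicates 4 and 5, the highest for ADR1, held the lowest value for 6 and 3 of the 10 members. CTA1 was highest in replicate 4 (19.6 CPM) and lowest in replicate 5 (17.2 CPM), and PXA2 was lowest in replicate 5 only by 38.13 against 38.14 CPM. Replicates 4 and 5 also lay apart from replicates 1 to 3 over all genes. A link between the RNA of ADR1 and that of the members was not tested. OAF1 and PIP2, which encode the oleate factors, rose in S288c in YM by less than 2-fold, from 71.6 to 109 CPM and from 90.2 to 141 CPM. Of the 18 genes listed as regulators of the oleate response and of glucose derepression, 2 were called higher in S288c in YM (ADR1, and SIP4, which encodes an activator of gluconeogenic genes, with a log2 change of 1.14) and 0 lower, shares that stand beside 11% and 8.82% of all genes. By the adjusted p alone 7 rose and 7 fell there, beside 33% and 34.2% of all genes. In each of the other 3 comparisons 0 of 18 were called, where 8.35%, 1.66% and 1.65% of all genes were in S288c in WYF, RM11 in YM and RM11 in WYF. The edgeR adjusted p was under 0.05 for 7, 4 and 7 of them, beside 48.1%, 15.3% and 35.6% of all genes. ADR1 fell in RM11 in YM, from 116 to 81.5 CPM, with a log2 change of -0.51 (adjusted p = 0.00857), and did not pass in WYF in either strain. In that treated RM11 group, replicate 5, which stood apart, had 55.97 CPM of ADR1 and the others 84.98 to 89.13. The fall was not retested without it. OAF1 and PIP2 also rose by less than 2-fold in S288c in WYF (0.39 and 0.40).

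Of 29 peroxins and inheritance factors, 2 were called higher and 1 lower in S288c in YM, beside 11% and 8.82% of all genes. By the adjusted p alone 16 rose and 5 fell, beside 33% and 34.2%. PEX2, a ubiquitin ligase of the import machinery, rose by 1.18 on the log2 scale, and PEX21, an import cofactor, by 1.09. PEX11, which promotes peroxisome division and beta-oxidation, stood at 47.6 to 59.2 CPM untreated and at 17.9 to 24.7 CPM treated. It moved opposite to the members called there, with a log2 change of -1.28 (standard error 0.11, edgeR adjusted p = 4.81e-07). PEX11 also fell in S288c in WYF (-0.64, adjusted p = 5.09e-05), from 59.5 to 38.9 CPM. There and in RM11 in YM 0 of 29 were called, beside 8.35% and 1.66% of all genes, while edgeR gave 11 and 2 of them an adjusted p under 0.05, beside 48.1% and 15.3%. In RM11 in WYF PEX18, another import cofactor, was the 1 called (1.01), where 1.19% of all genes were called higher. There 4 of 29 rose and 2 fell by the adjusted p, beside 17.8% of all genes in each direction. The median log2 change of the list was 0.38 in S288c in YM and 0.038 to 0.067 in the other comparisons, beside the medians of all genes given above.

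Of 18 genes of transport and accessory steps, of which 16 were tested, 5 were called higher and 1 lower in S288c in YM, beside 11% and 8.82% of all genes. By the adjusted p alone 6 rose and 5 fell, beside 33% and 34.2%. YAT2, which encodes a cytosolic carnitine acetyltransferase, rose by 2.96 on the log2 scale, from 54.3 to 434 CPM, and CTT1, the cytosolic catalase, by 2.63, from 26.1 to 168 CPM. PNC1, the nicotinamidase, rose by 1.46. FAA4, a cytosolic acyl-CoA synthetase, stood at 135 to 162 CPM untreated and at 41.6 to 66.6 CPM treated. It fell without overlap, with a log2 change of -1.45 (standard error 0.12, adjusted p = 4.51e-07), in the libraries where the peroxisomal synthetase gene FAA2 rose. FAA4 rose slightly in WYF, by 0.26 in S288c and 0.33 in RM11. CAT2, the carnitine acetyltransferase of peroxisomes and mitochondria (1.22), and CIT2, the peroxisomal citrate synthase (1.01), were called higher in S288c in WYF and LPX1, a peroxisomal lipase (-1.10), lower. These were 2 and 1 of 17 tested, beside 2.99% and 5.36% of all genes. With the adjusted p alone, 7 rose and 2 fell there, beside 48.1% of all genes in either direction. CTT1 lay just under 2-fold there in edgeR's fit, which has its own scaling. Its means, scaled over all 40 libraries, were 219.5 CPM untreated and 446 CPM treated. In RM11, YAT2 (1.07) and CTT1 (1.05) were called higher in YM, 2 of 18 beside 0.946% of all genes, and CTT1 (1.10) in WYF, 1 of 17 beside 1.19%. With the fold set aside, 3 of 18 rose and 0 fell in RM11 in YM, beside 15.3% of all genes in either direction. The WYF medium gave 11 of 17 that rose in RM11, beside 17.8% of all genes, and 0 that fell, beside another 17.8%. CTT1 and CTA1, the catalase genes, thus differed in RM11 in YM, where CTT1 stood at 174 to 219 CPM untreated and 323 to 474 CPM treated and CTA1 overlapped between the groups.

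Of 16 glyoxylate, gluconeogenic and other glucose-repressed genes, of which 13 were tested in YM, 6 were called higher and 0 lower in S288c in YM, beside 11% and 8.82% of all genes. By the adjusted p alone 8 rose and 1 fell, beside 33% and 34.2%. The largest were ADY2, an acetate transporter (2.29), ACS1, an acetyl-CoA synthetase (1.60), and ATO3, an ammonium exporter (1.39). The median of the list was 1.03. For WYF, 2 of 12 tested were called higher in S288c, beside 2.99% of all genes, HXK1, a hexokinase (1.25), and CIT2, with a median of 0.62. Of these 12, 9 passed the adjusted p, all of them higher, beside 22.7% of all genes that rose. In RM11 0 were called in either medium, of 13 tested in YM and 14 in WYF, where 1.66% and 1.65% of all genes were, and the medians were 0.10 and 0.17. In edgeR's test 4 of them fell in YM, beside 7.28% of all genes, and 7 rose and 1 fell in WYF, beside 17.8% in each direction, all by less than 2-fold. CIT2 and CRC1 belong to both this list and the one before.

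**Figure D5:**
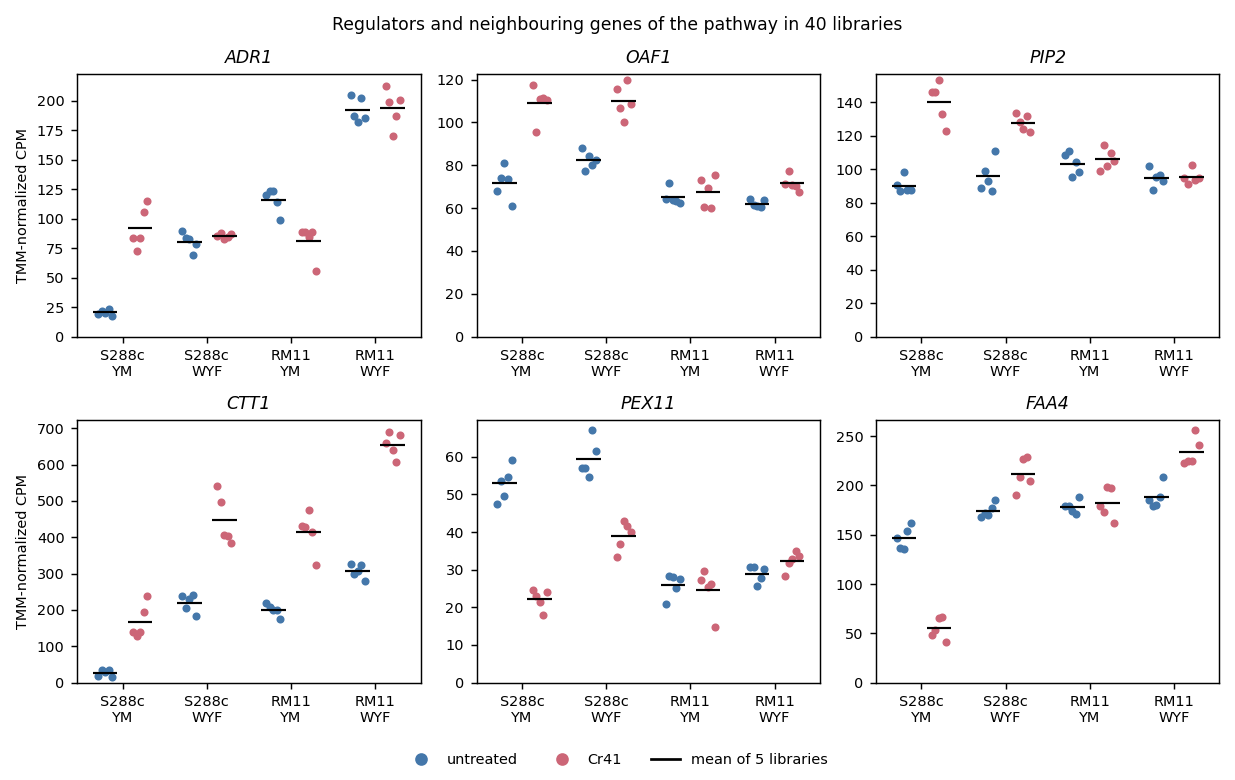
TMM-normalized CPM of ADR1, OAF1, PIP2, CTT1, PEX11 and FAA4 in 40 libraries, 1 panel per gene with its own axis from 0; each point is a library, blue untreated and red Cr41-treated, and black lines are the means of 5 libraries. In S288c in YM, ADR1 goes from 17.9 to 23.2 CPM untreated to 73.1 to 115 CPM treated, while PEX11 and FAA4 are lower in all 5 treated libraries.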

How the data were processed

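RNA-seq libraries of S288c and RM11 were analysed from deposited tables. The authors quantified reads of both strains on 6661 S288c transcripts using Salmon (version 0.13.1), and the estimated counts were deposited without normalization, beside lengths in bases. The deposited TPM values come from the authors' same Salmon runs. The authors then used DESeq2. Library type and strand setting are not given in the sources used here.

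Counts were rounded (472 to 652 values per library were not whole) and analysed with edgeR (version 4.0.16, under R 4.3.3). Low genes were removed by filterByExpr, libraries were scaled by TMM, and quasi-likelihood F tests were adjusted by the Benjamini-Hochberg method across all genes tested. Cr41 was compared within the 10 libraries of each strain and medium, and interactions and untreated groups within the 20 libraries of a medium or strain. Standard errors were derived from the log2 change and the F statistic. The common biological coefficient of variation was 7.95% to 15.1% over all fits. All 80 replicate pairs differed beyond sampling noise (chi-square divided by its degrees of freedom, 2.30 to 61.6). Printed CPM are TMM-scaled over all 40 libraries, while each fit used its own TMM factors.

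The members, the lists, the comparisons and the alternatives were chosen with earlier results of these data known. All 10 members are named. From the 4 lists, at most the 3 largest called rises and falls per comparison are named, plus PEX11, OAF1, PIP2, ADR1, CTT1 and FAA4 whatever their values, plus the 5 genes most like the members' mean profile. ACR1 is another name of SFC1 and was counted once. The fuller oleate pattern was added after the matches to the core were known. Alternatives were DESeq2 1.42.0, limma 3.58.1 on log2(TPM + 1), RLE normalization, all genes with any count, at least 10 counts in every library, no fold threshold, a replicate block, and leaving out each library. Of the transcripts, 5993 matched the RefSeq annotation of R64, all 10 members included, and near-identical copies were sought at 95% identity over 100 bases.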

Additional observations from a re-analysis of the deposited data

Results flagged for a closer look

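The 5 values of each member in each group were checked for a library far from the others, which chance finds in about 1 of 20 groups. Of 80 groups, 5 had one, against 4 given by chance. FOX2 in untreated RM11 in YM replicate 3 stood at 11.97 CPM, with the others at 14.3 to 15.0. POT1 in Cr41-treated RM11 in YM replicate 1 stood at 14.8 CPM, with the others at 17.3 to 18.0. PXA2 in untreated S288c in YM replicate 3 stood at 16.4 CPM, with the others at 10.6 to 11.3. ECI1 in untreated RM11 in YM replicate 2 stood at 16.8 CPM, with the others at 11.6 to 12.4. SPS19 in untreated RM11 in YM replicate 3 stood at 0.444 CPM, with the others at 1.46 to 1.56.

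The change with Cr41 differed between strains or media by a tested interaction (edgeR, adjusted p under 0.05) in 13 cases, all positive. For S288c minus RM11 in YM these were POX1 (2.53), FAA2 (1.0006), PXA1 (0.59), PXA2 (1.73), ECI1 (0.93) and CTA1 (3.93). PXA1 did not pass with limma on log2(TPM + 1) (0.35, adjusted p = 0.174). For S288c minus RM11 in WYF they were POX1 (0.80), FAA2 (1.04), PXA2 (0.70) and CTA1 (1.05). For YM minus WYF in S288c they were PXA2 (0.96), ECI1 (0.91) and CTA1 (2.37).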

How the results depend on the processing

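The counts of members called were recomputed under each alternative. Without the fold threshold they were 7 in S288c in YM, 6 in S288c in WYF, 4 in RM11 in YM and 4 in RM11 in WYF for Cr41. For the strain interaction in WYF the count was 4, for the medium interaction in S288c 3, for untreated strains 6 in YM and 8 in WYF, and for untreated media 4 in S288c and 4 in RM11. With limma on log2(TPM + 1), which understates changes of low genes, the counts were 2 for Cr41 in S288c in YM, 0 in S288c in WYF, 0 for the strain interaction in WYF, 1 for untreated strains in WYF, and 1 in S288c and 0 in RM11 for untreated media. Requiring 10 counts in every library left 6 to 9 members in a fit and gave 1 for Cr41 in S288c in YM, 1 in S288c in WYF, 1 for the strain interaction in WYF, 0 for the medium interaction in S288c, 1 and 1 for untreated strains in YM and WYF, and 0 for untreated media in S288c. Leaving out 1 library gave 3 to 5 for Cr41 in S288c in YM, 1 to 2 in S288c in WYF, 0 to 1 in RM11 in YM and 1 to 1 in RM11 in WYF. It gave 3 to 5 and 0 to 2 for the strain interaction in YM and WYF, 1 to 2 and 0 to 0 for the medium interaction in S288c and RM11, 3 to 3 and 1 to 3 for untreated strains in YM and WYF, and 2 to 3 and 0 to 1 for untreated media in S288c and RM11. The cause of these moves was not tested beyond what each alternative changes by its construction. DESeq2, RLE normalization and all genes with any count kept every count within 1.5 times. Of 668 values of members under the alternatives, 12 changed sign, all among values that passed the test in neither fit. On the TPM scale the median of all genes was -0.14 for Cr41 in S288c in YM, -0.17 for the strain interaction in YM, and 0.11 and 0.16 for untreated strains in YM and WYF, against at most 0.018 in size in these comparisons with edgeR.

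With the replicate number as a block, 4, 2, 1 and 1 members were called for Cr41 in S288c in YM and WYF and RM11 in YM and WYF, as without it, and the other comparisons kept their counts. The falls of PXA1 in RM11, under 2-fold, had an adjusted p that rounds to 0.05 in both media with the block. Deviations of log2 CPM from the group mean were correlated between the untreated and the treated library of the same number. The values were -0.351 to 0.548 in S288c in YM and -0.213 to 0.0584 in S288c in WYF. In RM11 they were -0.00851 to 0.116 in YM and -0.175 to 0.119 in WYF. In the same order, 1, 0, 0 and 1 of 5 untreated libraries correlated best with the treated library of their own number. These values thus give no sign that the numbers pair the samples. Depth limits POX1, POT1 and CTA1 in untreated S288c in YM, where they had 1 to 18 reads per library.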
